A study of Mus musculus with 12 samples.

Results

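The genes described here are the Wnt ligands, their receptors, the R-spondins, the secreted antagonists and a small set of transcriptional targets, measured in the ventricular zone of the mouse dorsal cortex. They were chosen by symbol: every protein-coding Wnt, Fzd, Dkk1 to Dkk4, Sfrp and Rspo gene, plus Lrp5, Lrp6, Axin2, Lef1, Tcf7, Nkd1 and Lgr5. This gave 48 genes of the 55487 gene identifiers in the deposited data, 21974 of which are protein-coding. There were 19 ligands, 12 receptors and coreceptors, 5 genes of the R-spondin group, 8 antagonists and 4 targets. The symbol rule itself uses no measured value, but the set was chosen with earlier results of these data known.

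Wnt proteins are secreted lipid-modified ligands that bind a Frizzled receptor together with the coreceptor Lrp5 or Lrp6. In the canonical branch this stabilises β-catenin, which enters the nucleus and activates genes through the DNA-binding factors of the TCF/LEF family. Axin2 and Nkd1 are among the targets and feed back to dampen the signal. Secreted Sfrp proteins bind Wnts, Dkk proteins block the Lrp coreceptors, and R-spondins acting through Lgr receptors keep Frizzled proteins on the cell surface. In the embryonic telencephalon the cortical hem, a signalling centre at the medial edge of the cortex, is a source of several Wnts, and the pathway is known to act on both the proliferation of cortical progenitors and the production of neurons.

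RNA-seq was done on 12 libraries, 3 in each of 4 groups: p18mKO2+ and p18mKO2- at embryonic day E16.5, and p18mKO2+ and p18mKO2- at E13.5. The mouse line holds, at ROSA26, a cassette that makes p18 (the CDK inhibitor encoded by Cdkn2c) and the fluorescent protein mKO2 once a loxP-flanked stop is removed, and tamoxifen was given in all 4 groups. By the labels, p18mKO2+ tissue overexpressed p18 and p18mKO2- tissue was normal; the labels name no Cre driver, strain or origin of the replicates, and p-values therefore reflect only how these libraries vary, in part perhaps for technical reasons. The study's stated aim was to relate CDK inhibitors to the switch from neuron to astrocyte production.

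The libraries held 17101971 to 21837088 estimated counts each. Cdkn2c stood at 25.84 to 30.95 CPM (counts scaled to a common library total, with a correction for library composition) in E16.5 p18mKO2+ and 15.1 to 31.8 CPM in E16.5 p18mKO2-, and at 21.6 to 32.6 CPM in E13.5 p18mKO2+ and 17.7 to 27.6 CPM in E13.5 p18mKO2-, so the groups overlapped within each stage. On the TPM scale, which divides by transcript length and lacks that composition correction, Cdkn2c did not overlap. It was 32.1 to 43.6 TPM in E16.5 p18mKO2+ and 13.7 to 28.7 TPM in E16.5 p18mKO2-. At E13.5 it was 27.7 to 32.6 TPM in p18mKO2+ and 16.1 to 26.5 TPM in p18mKO2-. Length is not the only difference between the scales. Sfrp1, with a length of 4372 in every library, averaged 332 CPM and 143 TPM in E16.5 p18mKO2+, but 307 CPM and 111 TPM in E16.5 p18mKO2-. The Cdkn2c groups thus overlapped on the CPM scale and lay apart on the TPM scale. How much of the gap in TPM comes from the scale was not tested. All 8 dorsal radial glia markers (Pax6, Sox2, Emx1, Emx2, Hes5, Vim, Fabp7 and Nes) were measured in every group, with a summed level of 1422 to 1541, 1208 to 1686, 1451 to 2038 and 2420 to 2762 CPM in E16.5 p18mKO2+, E16.5 p18mKO2-, E13.5 p18mKO2+ and E13.5 p18mKO2-. The 6 neuronal markers (Dcx, Tubb3, Stmn2, Mapt, Neurod6 and Rbfox3) summed, in the same order of groups, to 5080 to 5825, 5273 to 7033, 3412 to 4132 and 1456 to 1830 CPM, so transcripts of neurons were in every library. Replicate 3 of E16.5 p18mKO2+ and replicate 3 of E13.5 p18mKO2+ held both Xist and Y-linked transcripts. Y-linked transcripts summed to at most 0.415 CPM in all E13.5 p18mKO2- libraries and in replicates 1 and 3 of E16.5 p18mKO2-, and were at 0 in E13.5 p18mKO2+ replicate 1. They summed to 81.7 to 182 CPM in E16.5 p18mKO2+ and 168 CPM in E16.5 p18mKO2- replicate 2. In E13.5 p18mKO2+ replicates 2 and 3 they summed to 178 and 88.9 CPM. The Y-linked level was thus partly tied to the p18 groups at both stages and cannot be fully separated from them. The ribosomal RNA gene CT010467.1 stood at 16650 to 39640, 70620 to 152000, 26190 to 65840 and 52440 to 87990 CPM in E16.5 p18mKO2+, E16.5 p18mKO2-, E13.5 p18mKO2+ and E13.5 p18mKO2-, without overlap of the p18 groups at E16.5.

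Of the 48 genes, 36 had enough counts to be tested and 12 did not. Dkk4, Wnt10b, Wnt2 and Wnt8a had no count in any library, and Dkk1, Rspo4, Wnt1, Wnt10a, Wnt11, Wnt16, Wnt6 and Wnt9b reached at most 14 counts in a library. The tested genes spanned a wide range of levels. Sfrp1, a secreted Frizzled-related antagonist, was the most abundant by mean TPM over the 12 libraries, followed by the ligand gene Wnt7b, and the low end included Lgr5, Sfrp5 and Wnt3a at under 1 TPM on average in every group.

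The targets Axin2, Lef1 and Nkd1 all fell in E16.5 p18mKO2- tissue relative to E13.5 p18mKO2- tissue. Axin2 encodes a scaffold of the β-catenin destruction complex and is a widely used readout of canonical Wnt signalling, Nkd1 encodes a Dishevelled-binding inhibitor, and Lef1 is itself a DNA-binding factor of the pathway that is needed for the hippocampus. Promoter windows of Axin2 and Lef1 are shown because these targets fell together and TCF/LEF factors are the DNA-binding arm of the pathway. The windows are from RefSeq on GRCm38.p6, run 5′ to 3′ on the gene's strand from 250 bases before a transcript start to 50 bases after it, and put in capitals any match, on either strand, to the core TCF/LEF motif, taken as CTTTG followed by 2 bases that are each A or T. The first is the window of Axin2 at chr11:108920099-108920398 (plus strand), the second an upstream Lef1 start at chr3:131110047-131110346 (plus strand), the third a Lef1 start inside the gene at chr3:131156044-131156343 (plus strand), and the last that of the receptor gene Fzd7 at chr1:59481897-59482196 (plus strand), shown as a member with a match that also differed between stages.
Axin2: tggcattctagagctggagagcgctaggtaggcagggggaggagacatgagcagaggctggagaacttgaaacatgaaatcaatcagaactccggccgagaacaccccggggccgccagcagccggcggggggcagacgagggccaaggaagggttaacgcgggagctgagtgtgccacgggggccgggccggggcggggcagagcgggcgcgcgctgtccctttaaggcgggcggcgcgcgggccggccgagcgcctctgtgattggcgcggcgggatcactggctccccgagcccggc
Lef1 upstream start: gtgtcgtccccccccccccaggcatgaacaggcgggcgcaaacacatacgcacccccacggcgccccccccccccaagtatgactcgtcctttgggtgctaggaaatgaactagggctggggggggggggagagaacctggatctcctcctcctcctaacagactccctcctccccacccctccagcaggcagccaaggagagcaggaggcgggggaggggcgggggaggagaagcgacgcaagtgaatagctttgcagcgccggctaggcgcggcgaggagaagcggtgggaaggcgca
Lef1 internal start: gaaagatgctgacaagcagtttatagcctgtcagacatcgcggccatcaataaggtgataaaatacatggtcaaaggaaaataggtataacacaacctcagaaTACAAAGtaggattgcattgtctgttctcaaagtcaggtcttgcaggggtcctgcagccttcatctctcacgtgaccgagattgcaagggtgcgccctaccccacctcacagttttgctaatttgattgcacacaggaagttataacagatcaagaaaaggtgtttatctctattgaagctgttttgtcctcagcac
Fzd7: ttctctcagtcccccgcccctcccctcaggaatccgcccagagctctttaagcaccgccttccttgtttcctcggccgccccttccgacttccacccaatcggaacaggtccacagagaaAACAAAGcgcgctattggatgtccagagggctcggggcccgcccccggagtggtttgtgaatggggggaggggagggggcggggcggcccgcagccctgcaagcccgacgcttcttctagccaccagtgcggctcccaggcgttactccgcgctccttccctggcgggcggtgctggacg
The Axin2 window and the upstream Lef1 window held none of these letters, and the internal Lef1 window held 1 match, at position 104, on the minus strand. The other 2 Lef1 windows and the Nkd1 window, not printed, held no match, so the Lef1 window with a match is 1 of 4. The Fzd7 window held 1 match at position 121. RefSeq windows were found for 31 of the 48 genes, 38 windows in all, of which 6 (15.8%) held a match, against 16.9% of all 32851 mouse windows of the same length. The matches lay in Dkk1, Fzd7, Lef1, Wnt11, Wnt3 and Wnt5b. The window share was near that of all promoters, and a window without these letters says nothing of factor binding elsewhere in the gene.

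Lef1 (ENSMUSG00000027985, GRCm38 chromosome 3, 131110471 to 131224356, plus strand) had 7.67, 2.75 and 4.81 CPM in E16.5 p18mKO2- and 47.1, 63.4 and 34.3 CPM in E13.5 p18mKO2-. The groups did not overlap, and the lowest E13.5 library was several times the highest E16.5 one. Lef1 fell 9.55-fold, which is -3.26 ± 0.37 on the log2 scale (± SE; edgeR quasi-likelihood test, Benjamini-Hochberg adjusted p = 2.87e-05). In p18mKO2+ tissue the levels were 7.20, 12.1 and 8.25 CPM at E16.5 and 23.4, 21.99 and 38.0 CPM at E13.5, again without overlap. There the log2 change was -1.60 ± 0.35 (edgeR, adjusted p = 0.0396).

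Nkd1 (ENSMUSG00000031661, chromosome 8, 88521354 to 88594884, plus strand) had 15.7, 17.1 and 13.9 CPM in E16.5 p18mKO2- and 50.04, 49.98 and 38.6 CPM in E13.5 p18mKO2-, a log2 change of -1.57 ± 0.22 (edgeR, adjusted p = 0.000153). In p18mKO2+ tissue it had 14.2, 20.98 and 10.2 CPM at E16.5 and 31.7, 32.6 and 30.3 CPM at E13.5, a log2 change of -1.06 ± 0.22 (adjusted p = 0.0332). Neither pair of groups overlapped, and the E16.5 levels of the 2 p18 groups lay in the same range.

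Axin2 (ENSMUSG00000000142, chromosome 11, 108920349 to 108950783, plus strand) had 23.9, 20.4 and 12.9 CPM in E16.5 p18mKO2- and 51.9, 72.8 and 37.6 CPM in E13.5 p18mKO2-, a log2 change of -1.51 ± 0.27 (edgeR, adjusted p = 0.000802). In p18mKO2+ tissue it had 21.3, 27.4 and 16.8 CPM at E16.5 and 32.8, 31.4 and 34.9 CPM at E13.5. These groups did not overlap either, but the log2 change of -0.60 ± 0.26 was not called (adjusted p = 0.307). Tcf7, another TCF/LEF factor, averaged 5.70 ± 1.13 CPM in E16.5 p18mKO2- and 7.47 ± 1.07 CPM in E13.5 p18mKO2- (SD, n = 3 each), and its log2 change of -0.39 ± 0.27 was not called.

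**Figure D1:**
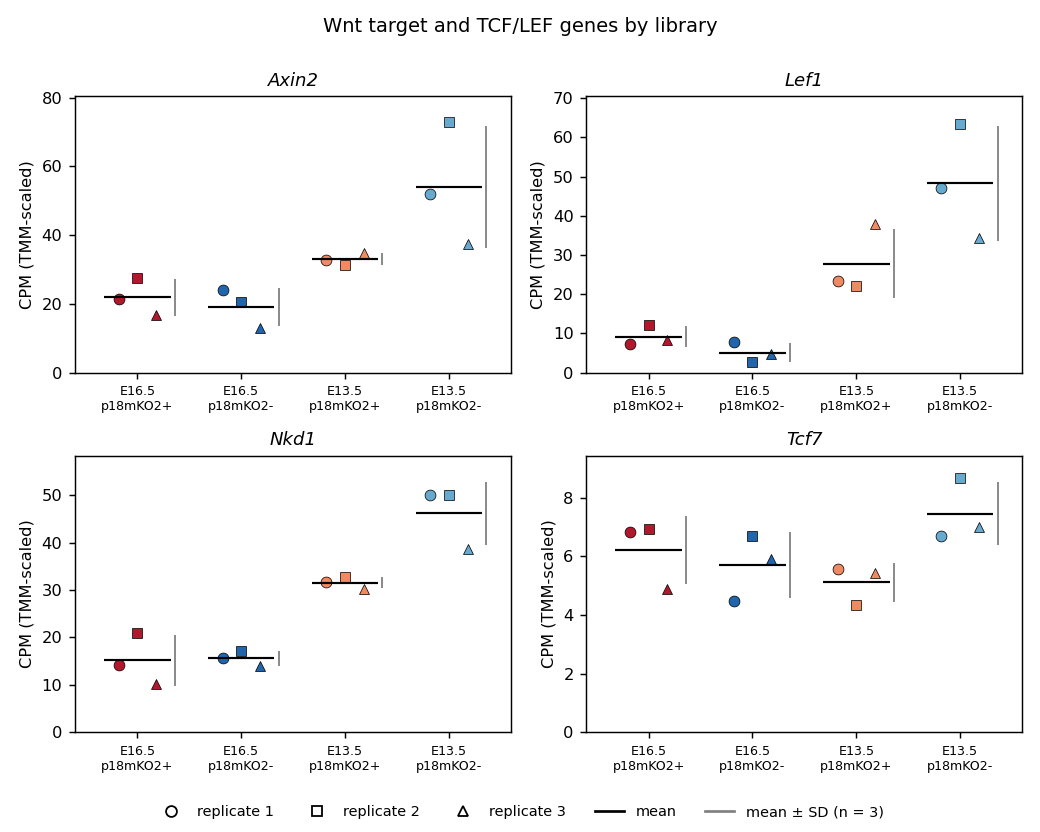
Level of the targets Axin2, Lef1, Nkd1 and Tcf7 in each of the 12 libraries, in TMM-scaled CPM on linear axes from 0; points are libraries, black lines give the group mean and grey bars the SD of 3. Lef1, Nkd1 and Axin2 are lower in all 3 E16.5 p18mKO2- libraries than in any E13.5 p18mKO2- library, and the E13.5 p18mKO2+ means of these 3 genes lie between.

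Over the whole set, the comparison of E16.5 with E13.5 in p18mKO2- tissue called 15 of 36 genes (41.7%) at an adjusted p under 0.05, against 29.8% of all 16798 genes tested. At an unadjusted p under 0.05 there were 17 (47.2%), against 39.4%. Without overlap of the groups, 15 (41.7%) were lower and 3 (8.33%) higher, against 19.4% and 21.0% of all genes. The direction was uneven: 14 of the 36 (38.9%) fell, against 13.4% of all genes, and 1 (2.78%) rose, against 16.4%. The median log2 change was -0.69 over the 36 genes and -0.02 over all genes. By role, 3 of 4 targets, 5 of 12 receptors, 3 of 10 ligands, 2 of 6 antagonists and 1 of 4 R-spondin group genes fell, and 1 ligand rose. Among markers of cell type, 7 of the 8 radial glia markers also fell and all 6 neuronal markers rose, with the summed levels given above; the part of this shift in the results on Wnt genes was not tested. In tissue pieces such as these, fewer cells of a type and less RNA per cell cannot be told apart.

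The ligand that rose was Wnt7b, which signals in both the canonical and the planar polarity branch and is made by cortical neurons and progenitors. Wnt7b (ENSMUSG00000022382, chromosome 15, 85535437 to 85582473, minus strand) had 238, 233 and 135 CPM in E16.5 p18mKO2- and 107, 66.2 and 86.8 CPM in E13.5 p18mKO2-, without overlap. The log2 change was 1.22 ± 0.24 (edgeR, adjusted p = 0.0017). In p18mKO2+ tissue it had 214, 161 and 213 CPM at E16.5 and 164, 168 and 110 CPM at E13.5, which overlapped, and the log2 change of 0.41 ± 0.24 was not called. An antisense gene that overlaps Wnt7b reached at most 4.80 CPM.

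Wnt7b made up most of the ligand transcripts in nearly every library. Its share of the summed TPM of the 19 ligand genes was 71.7 to 81.9% in E16.5 p18mKO2+ and 78.7 to 85.1% in E16.5 p18mKO2-. At E13.5 the share was 64.3 to 75.7% in p18mKO2+ and 41.5 to 62.9% in p18mKO2-, the lowest of the 4 groups and apart from the other 3. Wnt7a, the close relative of Wnt7b, was the next ligand per length, at 22.1 ± 1.39, 14.7 ± 3.75, 21.3 ± 1.22 and 18.1 ± 3.75 TPM in E16.5 p18mKO2+, E16.5 p18mKO2-, E13.5 p18mKO2+ and E13.5 p18mKO2- (SD, n = 3 each). Its range lay apart from that of Wnt7b in every group, and it was called in none of the comparisons. Wnt5a, a ligand of the non-canonical branch, followed in 3 groups, at 6.21 ± 3.52, 2.24 ± 0.92 and 6.74 ± 2.54 TPM in E16.5 p18mKO2+, E16.5 p18mKO2- and E13.5 p18mKO2+. In E16.5 p18mKO2- its range overlapped that of Wnt5b (2.18 ± 1.00 TPM). In E13.5 p18mKO2- Wnt5a stood at 5.22 ± 2.69 TPM beside Wnt8b at 5.76 ± 4.38 TPM, and their ranges overlapped.

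**Figure D2:**
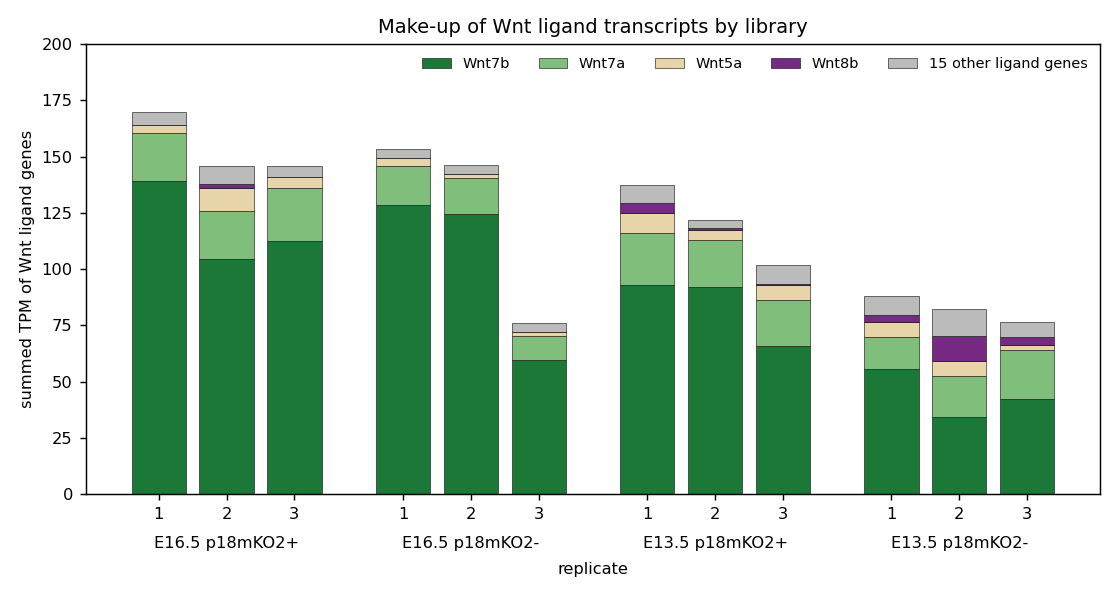
Summed TPM of the 19 Wnt ligand genes in each of the 12 libraries, on a linear axis from 0, stacked by ligand: Wnt7b, Wnt7a, Wnt5a, Wnt8b and the other 15 genes together. Wnt7b fills 41.5 to 62.9% of the bar in the E13.5 p18mKO2- libraries and more in the 9 other libraries, and Wnt8b is visible mainly in E13.5 p18mKO2-.

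Among the sparse members, the called genes Wnt8b, Wnt3a, Rspo1 and Fzd10 were at or near 0 at E16.5 in p18mKO2- tissue and present at E13.5. Other low members were not called in that comparison: Wnt2b gave -2.28 ± 1.33 without overlap of the groups (edgeR, adjusted p = 0.227), and Wnt5a (-0.80 ± 0.46), Rspo2 (-1.08 ± 0.70) and Lgr5 (0.64 ± 1.60) overlapped. Wnt8b, a ligand of the medial cortex (ENSMUSG00000036961, chromosome 19, 44493472 to 44514273, plus strand), had no count in any E16.5 p18mKO2- library, against 6.23, 22.7 and 7.72 CPM in E13.5 p18mKO2-, 670 counts over the group. Setting the E16.5 group at a limit of 3 counts in all, it was at least 217-fold lower (edgeR, adjusted p = 0.00342). In p18mKO2+ tissue Wnt8b had 0.10, 3.37 and 0 CPM at E16.5 and 7.61, 2.51 and 1.07 CPM at E13.5. These groups overlapped, because replicate 2 at E16.5 lay above 2 of the 3 libraries at E13.5.

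Wnt3a, the ligand that in the mouse hem is required for hippocampal growth, had 0 counts in E16.5 p18mKO2- and 0.36, 2.77 and 1.75 CPM in E13.5 p18mKO2-. With 88 counts over the E13.5 group, it was at least 28.5-fold lower at E16.5 (edgeR, adjusted p = 0.0322). Rspo1, a secreted enhancer of Wnt signalling, had 0.31, 0 and 0 CPM in E16.5 p18mKO2- and 4.15, 14.2 and 2.40 CPM in E13.5 p18mKO2-. Its 5 against 382 counts make it 74.2-fold lower at E16.5, with a 95% counting interval of 31.5 to 230 (edgeR, adjusted p = 0.00332). The receptor gene Fzd10 had 0.12, 0 and 0.17 CPM in E16.5 p18mKO2- and 2.08, 11.9 and 2.11 CPM in E13.5 p18mKO2-. Its 5 against 295 counts make it 57.3-fold lower, with an interval of 24.3 to 178 (adjusted p = 0.00978). None of these pairs of groups overlapped. The floor and intervals cover counting error only.

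The spread of these sparse genes within a group was set by a few libraries. E13.5 p18mKO2- replicate 2 was the highest of its group in Wnt8b, Wnt3a, Wnt2b, Rspo1, Rspo2 and Fzd10, and E16.5 p18mKO2+ replicate 2 was the highest of its group in the same 6 genes. Fzd10 reached 9.18 CPM in E13.5 p18mKO2+ replicate 3, against 0.97 and 0.50 CPM in the other libraries of that group. All 8 choroid plexus and roof plate markers were measured. Their summed level was 316 to 1481 CPM in E16.5 p18mKO2+ and 180 to 468 CPM in E16.5 p18mKO2-. At E13.5 it was 87.4 to 691 CPM in p18mKO2+ and 25.4 to 411 CPM in p18mKO2-. Replicate 2 had the highest sum in each group. Ttr made up most of these highest sums, at 1376, 439, 631 and 317 CPM in the same order of groups. Single markers did not all follow the sum. In E13.5 p18mKO2+, Otx2 (61.3 CPM), Lmx1a (5.12 CPM) and Kl (0.811 CPM) were highest in replicate 3, which had the lowest sum. Ttr, Kcne2 and Folr1 were highest in replicate 2 of that group, and Clic6 and Msx1 in replicate 1. No marker of that list was at 0 in all libraries of a group. The part of such tissue in the levels of the sparse genes was not tested. Without E13.5 p18mKO2- replicate 2, the log2 change was -4.99 for Rspo1 (edgeR, adjusted p = 0.0151) and -4.36 for Fzd10 (adjusted p = 0.0435), Wnt8b was still called (adjusted p = 0.00964) and Wnt3a was not (adjusted p = 0.0763). That library held 418 of the 670 Wnt8b counts and 51 of the 88 Wnt3a counts of its group; without it the lower limit of the fold at E16.5 was 123 for Wnt8b and 18.1 for Wnt3a, and the count ratios were 35.4-fold for Rspo1 and 22.2-fold for Fzd10. Without E16.5 p18mKO2- replicate 2 these limits were 137 and 17.96 and these ratios 46.8-fold and 36.1-fold, and without replicate 3 of that group Fzd10 was 96.8-fold lower. Without E16.5 p18mKO2- replicate 1, which held all 5 Rspo1 counts of its group, Rspo1 had an adjusted p of 0.00366 and Wnt3a of 0.0745. Leaving out E16.5 p18mKO2- replicate 2 gave -5.46 for Rspo1 (adjusted p = 0.0165), -5.11 for Fzd10 (0.0414) and an uncalled Wnt3a (0.0811), and leaving out replicate 3 gave -6.40 for Fzd10 (0.0235) and an uncalled Wnt3a (0.0696). Wnt3a was also not called without E13.5 p18mKO2- replicate 3 (adjusted p = 0.0583), with the Y-linked covariate (0.0649) or with the ribosomal RNA covariate (0.0502), and the filter dropped it when only the compared groups were fitted. limma-voom did not call Fzd10 (-5.41, adjusted p = 0.117).

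**Figure D3:**
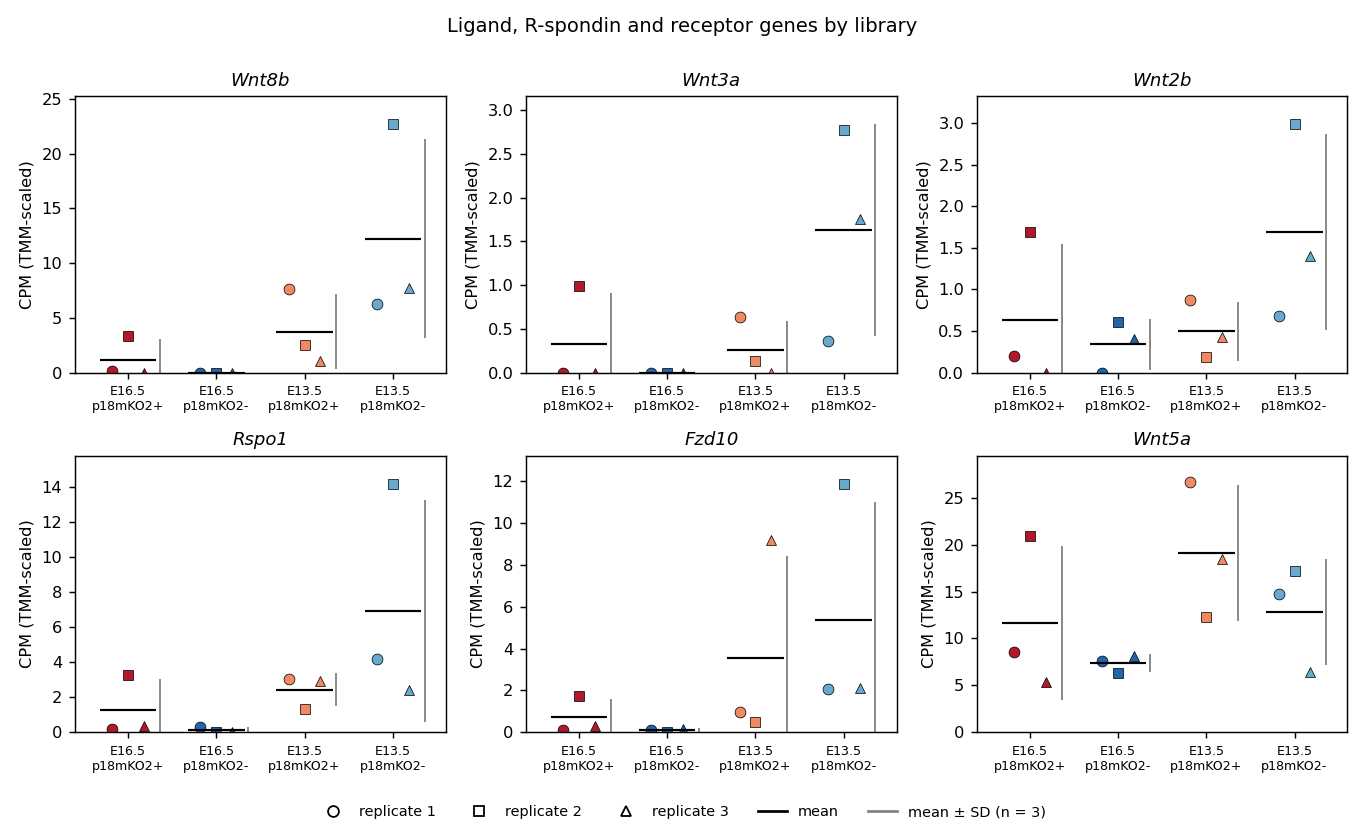
Level of sparse ligand, R-spondin and receptor genes in each of the 12 libraries, in TMM-scaled CPM on linear axes from 0; points are libraries, black lines give the group mean and grey bars the SD of 3, cut at 0. The E16.5 p18mKO2- libraries lie at or near 0 for Wnt8b, Wnt3a, Rspo1 and Fzd10, and 1 library, E13.5 p18mKO2- replicate 2, stands highest for Wnt8b, Wnt3a and Rspo1.

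The genes whose profile over the 12 libraries was most like that of Wnt8b were Zic5 (Pearson r of log2 CPM 0.96), Cyp1b1 (0.95), Tpbg (0.94), Dach1 (0.94) and Glb1l2 (0.94), out of 14289 genes with a mean of at least 1 CPM. Zic5 and Dach1 encode transcription factors, Cyp1b1 a cytochrome P450, Tpbg a membrane glycoprotein and Glb1l2 a galactosidase-like protein. These points share libraries and the stage difference, so the values are a description. Zic5 had 8.23, 6.16 and 7.24 CPM in E16.5 p18mKO2- and 25.02, 39.3 and 21.4 CPM in E13.5 p18mKO2-, with its highest value, like that of Wnt8b, in replicate 2 at E13.5.

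Among receptors, 5 Frizzled genes fell, Fzd10 among them, while Fzd3 and the coreceptor genes Lrp5 and Lrp6 were not called. Fzd9 had 6.26, 4.43 and 3.19 CPM in E16.5 p18mKO2- and 27.5, 34.8 and 15.2 CPM in E13.5 p18mKO2-, without overlap, a log2 change of -2.48 ± 0.42 (edgeR, adjusted p = 0.000554). Fzd8, a canonical Wnt receptor gene of forebrain progenitors, had 53.4, 58.5 and 34.3 CPM in E16.5 p18mKO2- and 123, 94.4 and 130 CPM in E13.5 p18mKO2-, a log2 change of -1.25 ± 0.20 (adjusted p = 0.000445). The Fzd8 groups did not overlap. Fzd7 had 14.1, 17.4 and 9.21 CPM in E16.5 p18mKO2- and 32.2, 31.3 and 19.2 CPM in E13.5 p18mKO2-, a log2 change of -1.02 ± 0.29 (adjusted p = 0.0166). Fzd2 averaged 59.1 ± 16.6 CPM in E16.5 p18mKO2- and 95.8 ± 8.82 CPM in E13.5 p18mKO2- (SD, n = 3 each), and its log2 change was -0.70 ± 0.20 (adjusted p = 0.0189). Without E16.5 p18mKO2- replicate 3 or E13.5 p18mKO2- replicate 1, neither Fzd7 (edgeR, adjusted p = 0.0613 and 0.0702) nor Fzd2 (0.0696 and 0.0839) was called. Leaving out E13.5 p18mKO2- replicate 2 also ended the call of Fzd7 (0.0576), and leaving out E16.5 p18mKO2- replicate 2 that of Fzd2 (0.0648).

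Fzd3, a receptor of planar polarity and axon guidance, was not called in either stage comparison. In p18mKO2- tissue the groups overlapped: it averaged 297 ± 50.5 CPM in E16.5 p18mKO2- and 297 ± 53.9 CPM in E13.5 p18mKO2-, a log2 change of -0.003 ± 0.16. In p18mKO2+ tissue it had 249 to 312 CPM at E16.5 and 316 to 367 CPM at E13.5, apart from each other, a log2 change of -0.24 ± 0.16 (edgeR, adjusted p = 0.555). Its share of the summed TPM of the Frizzled genes was 30.7 to 33.8% in E16.5 p18mKO2+, 29.1 to 40.3% in E16.5 p18mKO2-, 25.03 to 30.4% in E13.5 p18mKO2+ and 18.7 to 21.3% in E13.5 p18mKO2-. Per length, Fzd3 led the receptors in 3 groups, at 41.0 ± 8.75 TPM in E16.5 p18mKO2+, 35.5 ± 8.66 TPM in E16.5 p18mKO2- and 45.0 ± 4.08 TPM in E13.5 p18mKO2+, and in each its range overlapped that of the next gene. In E13.5 p18mKO2- the order was Fzd2 (41.4 ± 5.09 TPM), Fzd3 (35.7 ± 7.70), Fzd1 (33.3 ± 7.51) and Fzd8 (29.9 ± 4.43), and each range overlapped the next. Lrp6, the coreceptor, stood at 27.9 ± 6.10, 26.0 ± 3.93, 25.5 ± 1.00 and 20.9 ± 4.46 TPM in E16.5 p18mKO2+, E16.5 p18mKO2-, E13.5 p18mKO2+ and E13.5 p18mKO2-. Its counts between stages in p18mKO2- tissue gave a log2 change of 0.36 ± 0.15 (edgeR, adjusted p = 0.0877).

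**Figure D4:**
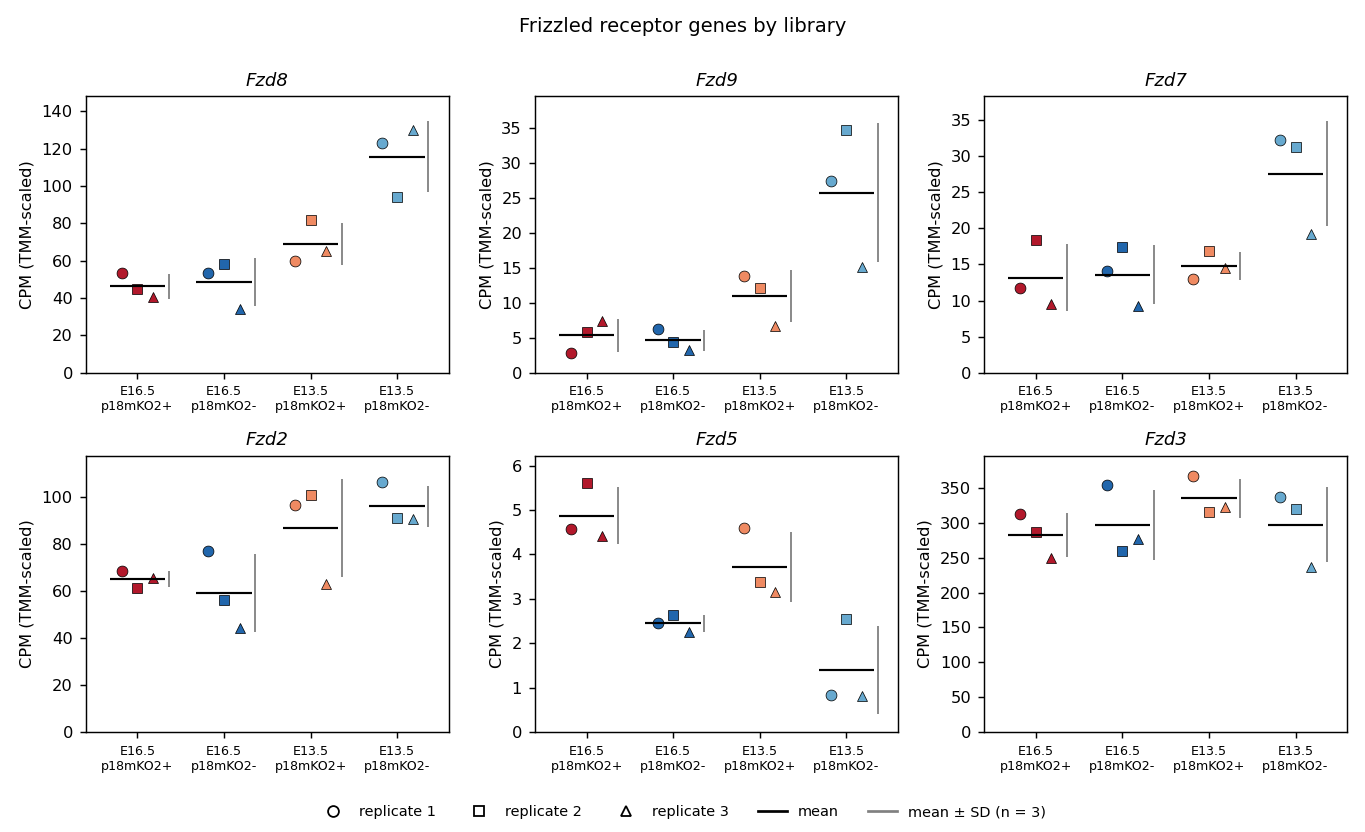
Level of 6 Frizzled genes in each of the 12 libraries, in TMM-scaled CPM on linear axes from 0; points are libraries, black lines give the group mean and grey bars the SD of 3. Fzd8, Fzd9 and Fzd7 are highest in E13.5 p18mKO2-, with all 3 of its libraries above every E16.5 library, while for Fzd3 the E16.5 and E13.5 p18mKO2- libraries overlap.

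Among the antagonists, Sfrp1 was abundant at both stages and Sfrp4 and Sfrp2 fell. Sfrp4 had 0.92, 1.53 and 0.87 CPM in E16.5 p18mKO2- and 4.72, 4.94 and 5.38 CPM in E13.5 p18mKO2-, without overlap, a log2 change of -2.17 ± 0.43 (edgeR, adjusted p = 0.0018). Sfrp2, which is enriched at the lateral edge of the embryonic cortex, had 25.8, 18.6 and 38.5 CPM in E16.5 p18mKO2- and 49.0, 45.7 and 44.8 CPM in E13.5 p18mKO2-, for a log2 change of -0.75 ± 0.25 (adjusted p = 0.0353). The Sfrp2 groups did not overlap, but leaving out 1 library ended its call for E16.5 p18mKO2- replicates 1 and 2, E16.5 p18mKO2+ replicate 1 and each E13.5 p18mKO2- library, with adjusted p-values of 0.0512 to 0.144 (edgeR). The compared groups alone (0.0618) and the Y-linked covariate (0.0687) ended it as well.

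Sfrp1 held 74.9 to 78.6%, 65.9 to 81.1%, 74.8 to 80.8% and 66.2 to 73.6% of the summed TPM of the 8 antagonist genes in E16.5 p18mKO2+, E16.5 p18mKO2-, E13.5 p18mKO2+ and E13.5 p18mKO2-. It averaged 307 ± 67.2 CPM in E16.5 p18mKO2- and 334 ± 29.9 CPM in E13.5 p18mKO2-, a log2 change of -0.12 ± 0.21 that was not called. Dkk3, a divergent Dickkopf gene, averaged 21.4 ± 4.10 CPM in E16.5 p18mKO2- and 13.4 ± 8.22 CPM in E13.5 p18mKO2-, a log2 change of 0.67 ± 0.42 that was not called.

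Of the remaining ligand and R-spondin genes, Wnt5b was called between stages in p18mKO2- tissue and Rspo3 and Rspo2 were not. Wnt5b had 4.17, 1.78 and 2.72 CPM in E16.5 p18mKO2- and 6.85, 6.89 and 4.50 CPM in E13.5 p18mKO2-, a log2 change of -1.08 ± 0.37 (edgeR, adjusted p = 0.0424). Fbxl14 overlaps Wnt5b on the opposite strand at a mean of 58.9 CPM, and no source used here states whether counting used strand, so reads of the pair may not be fully separated. Leaving out any single one of E16.5 p18mKO2+ replicates 1 to 3, E16.5 p18mKO2- replicates 2 and 3, E13.5 p18mKO2+ replicates 1 and 3 or E13.5 p18mKO2- replicates 1 and 2 ended the call of Wnt5b, with adjusted p-values of 0.0551 to 0.153 (edgeR). It was also not called without a filter (0.137), with the compared groups alone (0.106), without the 2 libraries with Xist and Y-linked reads together (0.0673), or with the Y-linked (0.0857) or ribosomal RNA covariate (0.0635). Rspo3, the most abundant R-spondin in every group, averaged 17.1 ± 7.34 TPM in E16.5 p18mKO2- and 12.8 ± 4.92 TPM in E13.5 p18mKO2-, and its log2 change in counts of 0.48 ± 0.38 was not called. Rspo2 averaged 1.36 ± 0.36 TPM in E16.5 p18mKO2- and 2.90 ± 3.06 TPM in E13.5 p18mKO2-, and was not called either.

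The same stage comparison in p18mKO2+ tissue called 2 of the 36 genes (5.56%), Nkd1 and Lef1, both lower, against 1.64% of all genes in either direction, 1.08% higher and 0.554% lower. Without overlap of the groups, 2 members (5.56%) were higher and 7 (19.4%) lower, against 13.1% of all genes higher and 2264 of 16798 lower. At an unadjusted p under 0.05 there were 7 members (19.4%), against 14.8% of all genes. The median log2 change was -0.20 over the 36 genes and -0.03 over all genes. Among the 7, Sfrp4 had 0.76, 1.29 and 0.92 CPM in E16.5 p18mKO2+ and 3.01, 1.87 and 3.37 CPM in E13.5 p18mKO2+, a log2 change of -1.47 ± 0.43 (edgeR, adjusted p = 0.106), and Fzd8 gave -0.58 ± 0.20 (adjusted p = 0.182), both without overlap of the groups. Both calls were lost on leaving out the 2 libraries with Xist and Y-linked reads together (Lef1 -1.20, adjusted p = 0.234; Nkd1 -0.84, adjusted p = 0.132), and leaving out any one of E16.5 p18mKO2+ replicates 1 and 3, E13.5 p18mKO2+ replicates 1 and 2 and E13.5 p18mKO2- replicate 1 also left none called, with adjusted p-values of 0.0514 to 0.190 (edgeR). Without E16.5 p18mKO2+ replicate 2 or E13.5 p18mKO2+ replicate 3, Nkd1 alone was called and Lef1 had an adjusted p of 0.053 and 0.0844.

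Whether the stage change differed between p18mKO2+ and p18mKO2- tissue is the same test as whether the p18 difference differed between stages, and it called 0 of the 36 genes with edgeR, against 2.7% of all genes. With an unadjusted p under 0.05 there were 8 members (22.2%), against 16.4% of all genes. DESeq2 called 3 (Lef1, Rspo1 and Wnt8b), limma-voom 0, and edgeR with no filter on low counts 6. All 4 targets had a positive estimate, that is, a p18mKO2+ minus p18mKO2- difference that was higher at E16.5: Lef1 at 1.66 ± 0.49 (edgeR, adjusted p = 0.0935), Axin2 at 0.91 ± 0.37 (adjusted p = 0.232), and Nkd1 and Tcf7 uncalled. Without E16.5 p18mKO2- replicate 1, Lef1 was called (2.10, edgeR, adjusted p = 0.0362). The calls in 1 p18 group and not in the other are therefore not shown to differ between them.

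At E13.5, p18mKO2+ libraries had fewer transcripts of all 4 targets on average than p18mKO2- libraries, but none of these differences was called. Axin2 had 32.8, 31.4 and 34.9 CPM in E13.5 p18mKO2+ and 51.9, 72.8 and 37.6 CPM in E13.5 p18mKO2-, without overlap, a log2 change of -0.71 ± 0.26 (edgeR, adjusted p = 0.0997). Nkd1 had 31.7, 32.6 and 30.3 CPM in E13.5 p18mKO2+ and 50.04, 49.98 and 38.6 CPM in E13.5 p18mKO2-, also without overlap, a log2 change of -0.55 ± 0.22 (adjusted p = 0.127). Lef1 overlapped, with E13.5 p18mKO2+ replicate 3 above E13.5 p18mKO2- replicate 3, and gave -0.80 ± 0.34 (adjusted p = 0.153). Tcf7 gave -0.55 ± 0.27 (adjusted p = 0.226).

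The member called at E13.5 was the receptor gene Fzd8, which had 59.9, 81.8 and 65.3 CPM in p18mKO2+ and 123, 94.4 and 130 CPM in p18mKO2-. The groups did not overlap, and the log2 change was -0.75 ± 0.20 (edgeR, adjusted p = 0.0304). This made 1 of 36 members (2.78%), against 10.8% of all genes tested, 7.29% higher and 3.49% lower. The Fzd8 call was lost without those 2 libraries (-0.71, adjusted p = 0.135), and on leaving out E13.5 p18mKO2+ replicate 1 (0.143) or 3 (0.118), E13.5 p18mKO2- replicate 1 (0.0926) or 3 (0.0978), or E16.5 p18mKO2+ replicate 2 (0.0522), as well as with the ribosomal RNA level as a covariate (0.153).

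At an unadjusted p under 0.05 there were 10 members (27.8%), against 25.4% of all genes. Wnt7b was higher in every E13.5 p18mKO2+ library (110 to 168 CPM) than in any E13.5 p18mKO2- library (66.2 to 107 CPM), with a log2 change of 0.77 ± 0.24 (edgeR, adjusted p = 0.0546). Fzd5, a Frizzled gene of low level here, likewise had 4.61, 3.38 and 3.16 CPM in E13.5 p18mKO2+ and 0.83, 2.55 and 0.82 CPM in E13.5 p18mKO2-, a log2 change of 1.40 ± 0.45 (adjusted p = 0.0626). In the other direction, Fzd9 gave -1.24 ± 0.40 (adjusted p = 0.061), Fzd7 -0.90 ± 0.29 (adjusted p = 0.0614) and Sfrp2 -0.71 ± 0.25 (adjusted p = 0.0861), each without overlap of the groups. In all, 8 members (22.2%) were lower and 2 (5.56%) higher without overlap, against 14.1% and 16.6% of all genes. The median log2 change was -0.36 over the members and 0.01 over all genes. In the same comparison 4 of 8 radial glia markers fell and 4 of 6 neuronal markers rose, with the summed levels given above. The 7 ventral telencephalon markers summed to 467 to 663 CPM in E13.5 p18mKO2+ and 137 to 382 CPM in E13.5 p18mKO2-, without overlap. At E16.5 they summed to 321.5 to 489 CPM in p18mKO2+ and 145 to 228 CPM in p18mKO2-, also apart. Of these 7, Gad1 alone was called at E13.5 and none at E16.5. The 6 Cajal-Retzius markers summed to 156, 77.2 and 383 CPM in E13.5 p18mKO2+ and 63.4 to 109.5 CPM in E13.5 p18mKO2-. The part of all these markers in the values was not tested.

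At E16.5, p18mKO2+ and p18mKO2- libraries did not differ by the test in any member: edgeR called 0 of 36, against 0.0% of all genes, DESeq2 0 and limma-voom 0. An unadjusted p under 0.05 was reached by 5 members (13.9%), against 2.54% of all genes. These were Wnt8b, Rspo1, Lef1, Fzd5 and Wnt3a. For Wnt8b, Rspo1 and Wnt3a, 1 library, E16.5 p18mKO2+ replicate 2, held most of the group's counts. It held 68 of 70 for Wnt8b, 66 of 78 for Rspo1 and 20 of 20 for Wnt3a. The targets overlapped, with Axin2 at 21.3, 27.4 and 16.8 CPM in E16.5 p18mKO2+ and 23.9, 20.4 and 12.9 CPM in E16.5 p18mKO2-, a log2 change of 0.20 ± 0.26. Lef1 gave 0.86 ± 0.36, and Fzd5, with 4.58, 5.61 and 4.42 CPM in E16.5 p18mKO2+ and 2.46, 2.65 and 2.26 CPM in E16.5 p18mKO2-, gave 0.99 ± 0.44 (edgeR, adjusted p = 0.9997 for both). Fzd5 and Sfrp5 were higher without overlap, 5.56% of the members, against 4.07% of all genes, and no member was lower without overlap, against 3.88%. The ribosomal RNA level lay apart between these groups. With it as a covariate edgeR called 0 members, but at E16.5 the covariate cannot be separated well from the p18 groups. That count therefore does not tell whether they differ. Wnt8b had 70 counts over E16.5 p18mKO2+, 68 of them in replicate 2, and 0 over E16.5 p18mKO2-, at least 20.1-fold higher, but without that library 2 counts were left, under the limit of 3; with no filter on low counts, edgeR called Wnt8b and Rspo1.

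**Figure D5:**
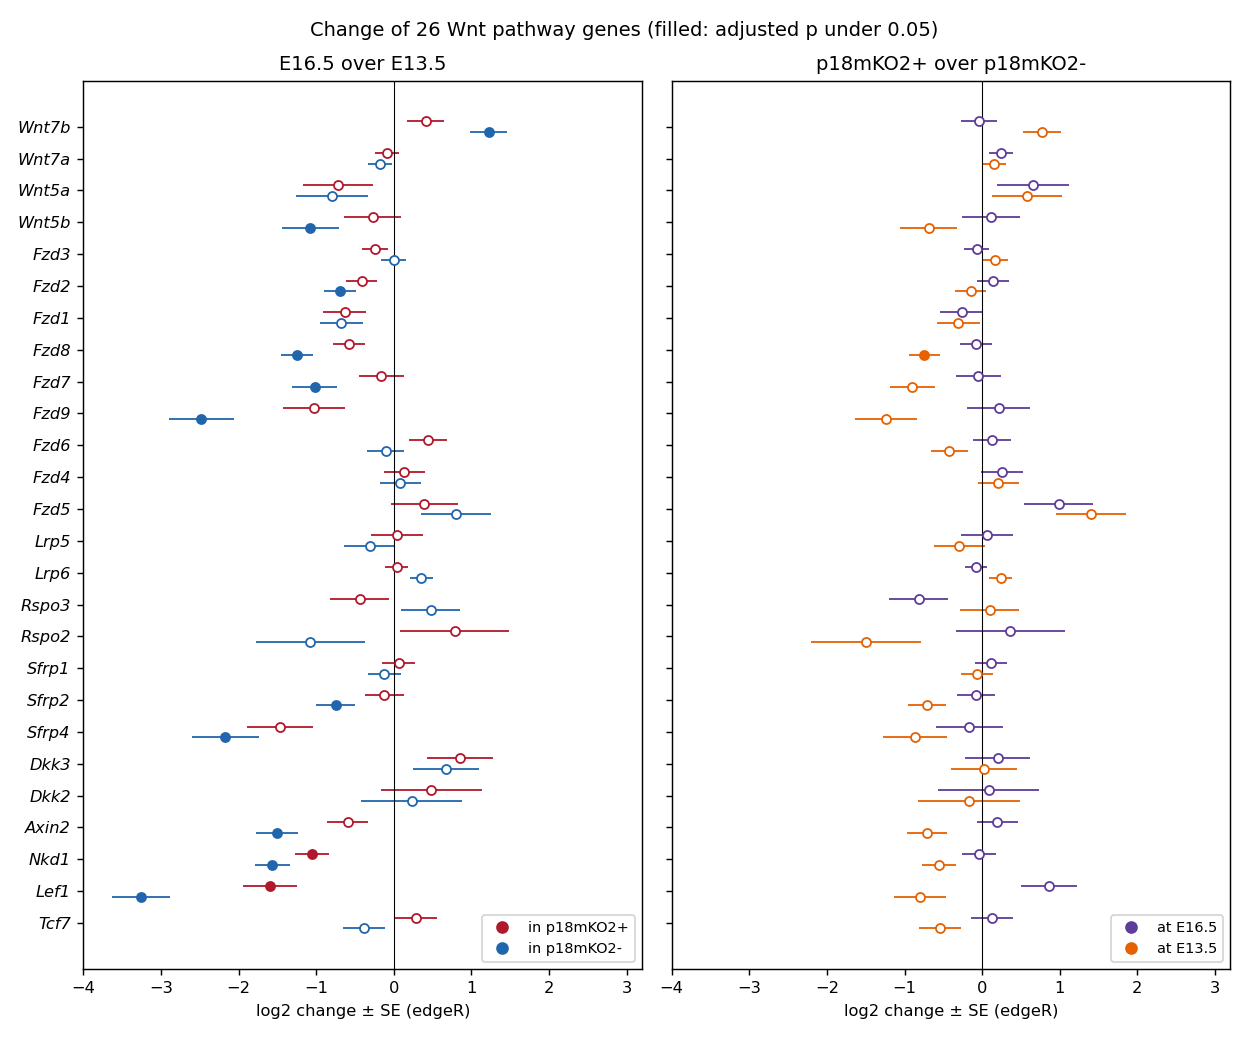
Log2 change with its SE of 26 of the tested genes in the comparisons of the 4 groups (edgeR; filled points have an adjusted p under 0.05), on linear log2 axes. The tested genes not drawn include Wnt8b, Wnt3a, Rspo1 and Fzd10, which were called between stages in p18mKO2- tissue. Lef1, Nkd1 and Axin2 lie farthest to the left among the targets in the comparison of E16.5 with E13.5 in p18mKO2- tissue, and at E16.5 no p18mKO2+ against p18mKO2- point is filled.

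Of 53 other genes of the pathway, 48 were tested. In the p18 comparison at E13.5, 6 of them rose and 4 fell, against 7.29% of all genes higher and 3.49% lower (10.8% in either direction). Prickle1, a planar polarity gene, gave 1.81 ± 0.22, the destruction complex gene Apc 0.89 ± 0.14, the planar polarity cadherin gene Celsr3 1.13 ± 0.20, and Tcf7l1, the TCF factor that mostly represses, -1.47 ± 0.25 (log2 ± SE; edgeR, adjusted p at most 0.00363). At E16.5 none was called by edgeR, against 0.0% of all genes, and 2 had an unadjusted p under 0.05, against 2.54% of all genes. The 4 with the smallest p were Prickle1 (-0.54 ± 0.21), Wls (0.66 ± 0.30), Wif1 (3.31 ± 1.95) and Dvl3 (0.25 ± 0.14). Wls escorts Wnts to the cell surface and Wif1 is an antagonist gene. Wls gave 0.011 with the ribosomal RNA covariate and 0.33 without E16.5 p18mKO2+ replicate 2. Wif1 had 0, 0.744 and 0 CPM in E16.5 p18mKO2+ and 0.061, 0 and 0 CPM in E16.5 p18mKO2-, and without E16.5 p18mKO2+ replicate 2 its log2 change was -2.01. Dvl3 gave 0.45, 0.16 and 0.17 without E16.5 p18mKO2- replicate 1, 2 or 3.

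Between stages in p18mKO2- tissue 10 of these 48 genes rose and 12 fell, against 16.4% of all genes higher and 13.4% lower (29.8% in either direction). Prickle1 rose by 3.24 ± 0.23, the corepressor gene Tle4 by 1.56 ± 0.15 and Apc by 1.35 ± 0.14, and Tcf7l1 fell, with a log2 change of -2.73 ± 0.27 (edgeR, adjusted p at most 1.63e-05). In p18mKO2+ tissue 1 of the 48 was called, against 1.64% of all genes in either direction, 1.08% higher and 0.554% lower. It was Tcf7l1, at -1.21 ± 0.26 (edgeR, adjusted p = 0.0342). Prickle1 gave 0.89 ± 0.21, Tle4 0.59 ± 0.14 and Tcf7l2 -2.07 ± 0.60 (adjusted p of 0.0502 to 0.105). Prickle1 (0.0461) and Tle4 (0.0495) were called with RLE scaling. Tcf7l2 had 11.3, 17.46 and 15.5 CPM in E16.5 p18mKO2+ and 33.7, 17.46 and 134 CPM in E13.5 p18mKO2+, and without E13.5 p18mKO2+ replicate 3 its log2 change was -0.77. Tcf7l1 had 17.2, 15.4 and 7.42 CPM in E16.5 p18mKO2- and 99.3, 78.5 and 87.2 CPM in E13.5 p18mKO2-, and 11.7, 15.7 and 14.0 CPM in E16.5 p18mKO2+ and 34.2, 36.2 and 25.6 CPM in E13.5 p18mKO2+. Both pairs of stages were apart, and E13.5 p18mKO2+ lay between the E16.5 groups and E13.5 p18mKO2-.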

How the data were processed

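Tissue was cut out by laser microdissection and, per the labels' protocols, polyadenylated RNA was made into directional libraries. Builds and tools in the submitters' processing notes were GRCm38, cutadapt 3.4, STAR 2.7.2b and RSEM 1.2.31. The authors deposited, per the file headers, an expected count for each gene (RSEM's estimate, in which a read matching several places is divided among them) and a TPM, which corrects for transcript length. Names and coordinates here are from GENCODE mouse release 21 on GRCm38, which held 55227 of the 55487 identifiers; the authors' annotation release is not stated in these sources.

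The expected counts were rounded and TMM-scaled. A quasi-likelihood model in edgeR 4.0.16 (R 4.3.3) with 1 mean per group was fitted to all 12 libraries for the 16798 genes that filterByExpr kept, leaving 8 residual degrees of freedom and a common biological coefficient of variation of 0.311. A gene counted as called where its Benjamini-Hochberg adjusted p over all these genes was under 0.05. SE is the absolute log2 change over the square root of F. CPM is TMM-scaled, profile likeness used log2 CPM with a prior count of 2, and genes were compared with each other in TPM. The fitting code was tested on simulated counts.

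Other settings run were RLE scaling, DESeq2 1.42.0, limma-voom (limma 3.58.1), testing without a low-count filter or at a mean CPM of 5 or more, the replicate number as a block, fitting the compared groups alone, and dropping single libraries. Chosen after seeing the data were dropping the 2 libraries that hold Xist and Y-linked reads together, and covariates for the Y-linked level and for the ribosomal RNA gene CT010467.1. The members, gene lists and tests were chosen with earlier results of these data known. The naming rule took the called members (per-library values for up to 4 per role, and for Axin2, Lef1 and Wnt8b), the 2 uncalled ones per role with the highest TPM and, of other pathway genes, the 4 with the smallest p per comparison; called members beyond 12 in a comparison and uncalled members near the threshold were named after their values were seen. Figures were drawn with matplotlib 3.10.9.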

Additional observations from a re-analysis of the deposited data

Results flagged for a closer look

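In 4 of the 48 tested pathway genes outside the chosen set, the p18mKO2+ minus p18mKO2- difference differed between E16.5 and E13.5. The test was that of the difference (edgeR quasi-likelihood, Benjamini-Hochberg adjusted p over all genes). Of these, 3 were lower and 1 higher, against 2.4% of all genes lower and 0.298% higher (2.7% in either direction). Prickle1, of the planar polarity branch, had 29.5, 25.6 and 32.1 CPM in E16.5 p18mKO2+ and 37.8, 43.9 and 45.0 CPM in E16.5 p18mKO2-. At E13.5 it had 19.0, 15.6 and 12.4 CPM in p18mKO2+ and 5.66, 4.50 and 3.22 CPM in p18mKO2-. The difference of differences was -2.35 ± 0.30 on the log2 scale (SE; adjusted p = 0.00143). For Apc, of the destruction complex, it was -1.05 ± 0.20 (adjusted p = 0.0154), for the corepressor gene Tle4 -0.97 ± 0.20 (adjusted p = 0.0226), and for Tcf7l1, a TCF factor, 1.52 ± 0.36 (adjusted p = 0.0399). Prickle1 was past the threshold in all 21 alternatives run, Apc in 17, Tle4 in 16 and Tcf7l1 in 10. The call of Apc was lost without E16.5 p18mKO2+ replicate 2 or 3, without E13.5 p18mKO2+ replicate 1 or without the libraries holding both Xist and Y-linked reads (edgeR, adjusted p of 0.0505 to 0.0896). That of Tle4 was lost without those libraries, either of E16.5 p18mKO2+ replicates 1 and 2, E13.5 p18mKO2+ replicate 1, or the second E16.5 p18mKO2- replicate (0.0526 to 0.0923). That of Tcf7l1 was lost without those libraries, with the Y-linked covariate, or without any single one of all E16.5 p18mKO2+ and E13.5 p18mKO2- libraries, E16.5 p18mKO2- replicate 2 and E13.5 p18mKO2+ replicates 1 and 3 (0.0564 to 0.171). In the same test 2 of the 6 neuronal markers, Mapt and Dcx, were called lower, against 2.4% of all genes. Of the 8 radial glia markers 3, Emx2, Hes5 and Sox2, were called higher, against 0.298% of all genes. The part of these markers in the result was not tested.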

How the results depend on the processing

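Of the single-gene values recomputed, 1064 kept their direction and side of the threshold, 55 came past it, 89 no longer passed it and 3 turned round; RLE changed no call of a member and brought Tle4 and Prickle1 past the threshold between stages in p18mKO2+ tissue. For p18mKO2+ against p18mKO2- at E13.5, where 1 member was called, DESeq2 called 6, testing without a filter 8, limma-voom 4, a mean CPM of at least 5 also 4, the compared groups alone 3, the Y-linked covariate 2 and the fit without the libraries holding both Xist and Y-linked reads 0, and leaving out 1 library gave 0 to 5. At E16.5 (0 called), testing without a filter called 2. For the difference of the p18 effect (0 called), DESeq2 called 3 and testing without a filter 6, and leaving out 1 library gave 0 to 1. For E16.5 against E13.5 in p18mKO2- tissue the count of 15 became 9 at a mean CPM of at least 5, where 21 members were tested, 12 with the Y-linked covariate and with the compared groups alone, 13 with the ribosomal RNA covariate, and 11 to 15 with 1 library left out. In p18mKO2+ tissue the count of 2 became 5 without a filter, 1 with the ribosomal RNA covariate, 0 with the Y-linked covariate, 0 without the libraries holding both kinds of reads, and 0 to 2 with 1 library left out. Apart from the smaller set tested, the cause was not tested. At E16.5, the p18 log2 difference of Wif1 (3.31) turned to -1.48 with the ribosomal RNA covariate and ran from -2.01 to 5.34 with 1 library left out, and that of Axin2 (0.20) from -0.0094 to 0.41. Whether replicate numbers pair the libraries is not stated in the labels, and correlations between libraries do not settle it. Deviations of same-numbered libraries correlated at -0.069 to 0.20, over 0.1 in 4 of 12 pairs. In 6 of 12 comparisons a library was best with its own number. Between p18mKO2+ and p18mKO2- at E16.5, same-numbered libraries gave 0.10, 0.061 and 0.15, and libraries of different number at most 0.044. With the replicate block, 4 members were called at E13.5 (Fzd8, Fzd5, Fzd7 and Wnt7b), 0 at E16.5, 0 for the difference, and 17 and 2 between stages in p18mKO2- and p18mKO2+ tissue. DESeq2 gave no adjusted p for Fzd10 between stages in p18mKO2- tissue. Depth limits Wnt3a most among the called members, at 88 counts over E13.5 p18mKO2-.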
